A study of Caenorhabditis elegans with 14 samples.

Results

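The 10 most abundant piRNAs in the deposited counts from young adult worms were 21ur-908, 21ur-5815, 21ur-2761, 21ur-1267, 21ur-5842, 21ur-5714, 21ur-7645, 21ur-5220, 21ur-5597 and 21ur-5395. They were chosen from 15366 listed piRNAs as those with the highest count summed over 2 small RNA libraries. In RPM, counts scaled to the library total, all 10 were lower in the library from snpc-4 RNAi animals, by very different amounts, and with 1 other scaling 21ur-5815 and 21ur-5220 were higher. 21ur-908, the leader under control RNAi, was at 0.332 of its control level, while 21ur-5815 was at 0.880. Because the summed counts chose the members, their counts, ratios and ranks are a description of these libraries.

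One library came from N2 young adults, the wild-type Bristol strain, that ate bacteria with the empty vector L4440 as control RNAi. The other came from N2 young adults that ate bacteria expressing double-stranded snpc-4 RNA. Whole animals were used, so germline and body contribute to every value, and the larval stage given for the start of feeding is not the same throughout the labels. Both groups share the strain and the feeding method, and with a single library each, no difference has a replicate behind it: every value compares 2 libraries, not 2 conditions. mRNAs are not listed in the tables, so how far snpc-4 was depleted was not analysed here.

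piRNAs are short RNAs of the germline that guide an Argonaute protein of the Piwi class, in worms PRG-1, to transcripts that are to be silenced. In worms they are called 21U-RNAs, after their length and their first base. Most come from their own tiny genes, each with a promoter that carries a short upstream motif, and large numbers of such genes are packed into domains of chromosome IV. A short capped precursor is made by RNA polymerase II and trimmed to the mature piRNA. SNPC-4, formerly GEI-11, is a subunit of the SNAP complex, which is known for its role at small nuclear RNA genes. The question addressed is how the level of each leading piRNA in the snpc-4 RNAi library compares with that in the control RNAi library.

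The piRNA class held 64824 counts under control RNAi and 32086 under snpc-4 RNAi. RPM is the count scaled by the authors to a library total, here 20413480 and 20875010; 1 count is worth 0.0490 and 0.0479 RPM. The labels do not state what makes up these totals, which far exceed the sums over the listed transcripts of all classes, 956653 and 1074622 counts or 4.69% and 5.15%. The intervals given are 95% and cover counting error only; the labels name no molecular identifiers, so PCR copies of 1 molecule may count separately and the true error may be wider. The least abundant count of any member was 304, far above the floor of 3 counts. Reference entries of all 10 members are 21 nucleotides long, just below the 22 to 30 nucleotides that the labels' protocols give for the sequenced inserts, and the labels do not say how reads were assigned to piRNA genes. Reads of near-identical copies could therefore have been split or shared between genes.

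Control levels of the 10 members spanned an order of magnitude. 21ur-908 (Y105C5B.180) had 7881 counts or 386 RPM (378 to 395) under control RNAi. It stood apart from the next member, 21ur-5815 (T23G4.79), which had 3046 counts or 149 RPM (144 to 155). Then came 21ur-2761 (Y40H7A.121) at 121 RPM, 21ur-1267 (Y40H7A.76) at 108.5 RPM (104 to 113), 21ur-5842 at 101 RPM and 21ur-5714 (F52B11.48) at 91.6 RPM. The remaining members were 21ur-7645 at 55.5 RPM, 21ur-5395 (Y51H4A.101) at 40.6 RPM, 21ur-5597 (Y105C5A.929) at 40.5 RPM and 21ur-5220 (Y37A1B.97) at 35.8 RPM. 21ur-5395 and 21ur-5597 differed by 1 count under control RNAi, 828 against 827, a ratio of 0.999 (0.906 to 1.10). For every other pair of adjacent members in this order the interval of the ratio of counts excluded 1, the nearest to it being 21ur-5842 over 21ur-1267 at 0.931 (0.876 to 0.989).

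**Figure D1:**
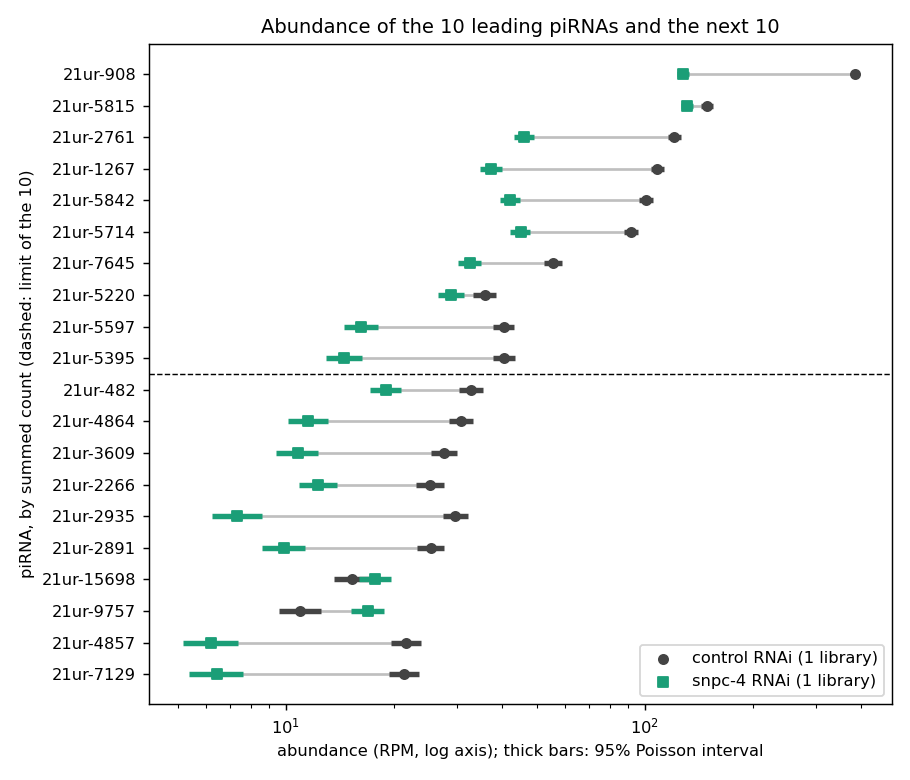
Abundance of the 10 leading piRNAs and of the 10 ranked next, one row each, on a log axis of RPM, with circles for the control RNAi library, squares for the snpc-4 RNAi library and thick bars for the 95% Poisson interval. In RPM all 10 leading piRNAs lie further left under snpc-4 RNAi, of which 21ur-5815 and 21ur-5220 lie right when scaled by the median ratio over all transcripts; 21ur-5815 moves from 149 to 131 RPM and 21ur-908 from 386 to 128 RPM.

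Of the 10 members, 7 were strongly lower, by which is meant a ratio of snpc-4 over control of at most 0.5. The background was 58.8% of 560 well-counted piRNAs, those with a mean of at least 10 counts, so 7 of 10 is close to the share of well-counted piRNAs in general. 21ur-908 had 2673 counts or 128 RPM under snpc-4 RNAi, a ratio of 0.332 (0.317 to 0.347). 21ur-1267 went from 2215 to 779 counts, a ratio of 0.344 (0.317 to 0.373). 21ur-5395 went from 828 to 304 counts, a ratio of 0.359 (0.314 to 0.410). In these 3 piRNAs about the same part of the control level was left, and their intervals overlap.

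The other strongly lower members had higher ratios, though counting error did not separate all of them from those above. Each was separable from 21ur-908. The ratio of 21ur-2761 relative to that of 21ur-1267, however, was 1.11 (0.990 to 1.24), an interval that includes 1. 21ur-2761 went from 2470 to 962 counts, a ratio of 0.381 (0.353 to 0.410). 21ur-5597 went from 827 to 338 counts, a ratio of 0.400 (0.351 to 0.454). 21ur-5842 went from 2062 to 880 counts, a ratio of 0.417 (0.385 to 0.452). 21ur-5714 closes the group at 1870 and 941 counts, a ratio of 0.492 (0.454 to 0.532), whose interval spans the limit of 0.5. Relative to the rest of the piRNA class it was level, with a relative ratio of 1.02 (0.938 to 1.10), whereas the other 6 lay below their class, from 0.657 (0.627 to 0.688) for 21ur-908 to 0.858 (0.791 to 0.930) for 21ur-5842. The relative ratio compares a piRNA with all other piRNAs of the same library and does not depend on how the libraries are scaled to each other.

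In RPM, 21ur-5815 and 21ur-5220 were nearly unchanged, meaning a ratio between 0.8 and its inverse, and this name depends on the scaling. Scaled to all listed counts, 21ur-5815 was at 0.801 and 21ur-5220 at 0.734, outside that range. Scaled to the microRNAs both were outside it, at 0.766 and 0.702. Scaled by the median ratio over all transcripts both became higher than control. The background for this range was 13.4% of the 560 well-counted piRNAs. 21ur-5815 had 3046 counts under control RNAi and 2740 under snpc-4 RNAi, a ratio of 0.880 (0.835 to 0.927). 21ur-5220 had 731 and 603 counts, a ratio of 0.807 (0.723 to 0.900), whose interval reaches below the limit of 0.8. Relative to the rest of the piRNA class they were 1.89-fold (1.79 to 2.00) and 1.68-fold (1.504 to 1.87) higher under snpc-4 RNAi. 21ur-7645 was intermediate, with 1133 and 679 counts, a ratio of 0.586 (0.532 to 0.645) and a relative ratio of 1.22 (1.10 to 1.34).

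**Figure D2:**
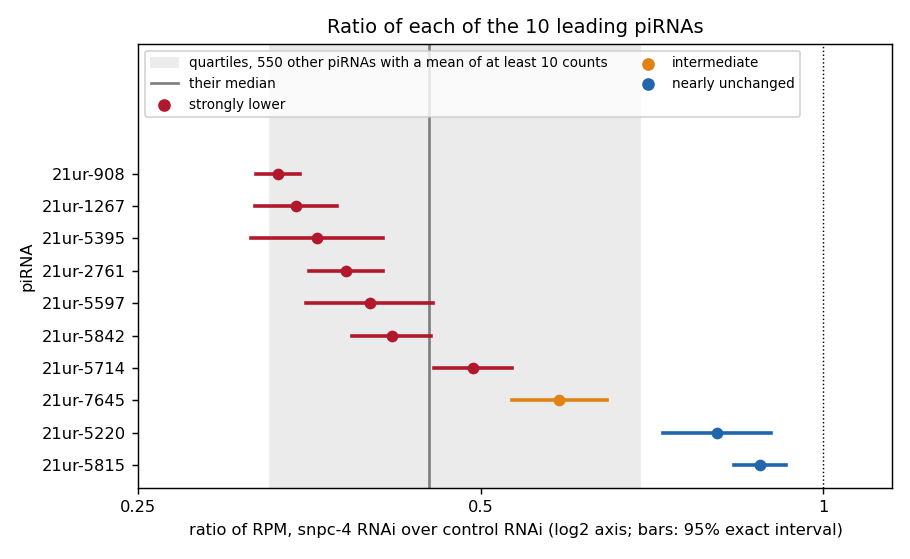
Ratio of RPM in the snpc-4 RNAi library over the control RNAi library for each of the 10 leading piRNAs, on a log2 axis with 95% exact intervals; the grey band and line are the quartiles and median of 550 other well-counted piRNAs, and the dotted line is a ratio of 1. Red points are at most 0.5, blue points from 0.8 to its inverse in RPM, a range that both leave when scaled to microRNAs, and the orange point is between them; 21ur-5220 and 21ur-5815 lie to the right of the band, and both exceed 1 when scaled by the median ratio over all transcripts.

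Members were also set against each other in pairs, which needs no scaling between libraries. The 10 members form 45 pairs, and in 33 the interval of the relative ratio excluded 1 while in 12 it included 1. All 14 pairs of a nearly unchanged and a strongly lower member excluded 1, which the way these 2 groups were drawn partly fixes. Their relative ratios ran from 1.64 for 21ur-5220 over 21ur-5714 to 2.65 for 21ur-5815 over 21ur-908. The pair of 21ur-5815 and 21ur-908 had an interval of 2.48 to 2.84. 21ur-5815 and 21ur-5220 themselves had a relative ratio of 1.09 (0.966 to 1.23), so no difference between them was detectable with these counts. Within the 7 strongly lower members, 11 of 21 pairs included 1. 21ur-5714 set itself apart from the 6 others, as in 21ur-908 over 21ur-5714 at 0.674 (0.616 to 0.738).

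A pair with similar control levels makes the contrast plain. 21ur-5220 and 21ur-5597 had 731 and 827 counts under control RNAi, and 603 and 338 under snpc-4 RNAi. The first therefore had fewer counts than the second under control RNAi and more under snpc-4 RNAi, a relative ratio of 2.02 (1.70 to 2.39). A high control level did not go with a single outcome either, as 21ur-908 and 21ur-5815, the leading pair, lay at opposite ends of the members' ratios.

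The order of the members shifted accordingly. 21ur-5815 took the first rank under snpc-4 RNAi and 21ur-908 the second, but their counts of 2740 (2638 to 2845) and 2673 (2573 to 2776) overlap in counting error. 21ur-2761, 21ur-5842 and 21ur-7645 held ranks 3, 5 and 7 in both libraries. 21ur-5714 moved from rank 6 to 4 and 21ur-1267 from 4 to 6. In the snpc-4 library the counts at ranks 3 to 5, 962, 941 and 880, overlap in their Poisson intervals, so their order is not resolved.

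At the lower end of the list, 21ur-5220 moved from rank 10 to 8. 21ur-5597 went from rank 9 to 12 and 21ur-5395 from rank 8 to 13, out of the first 10. Their places under snpc-4 RNAi went to 21ur-482 (Y51H4A.195), which moved from rank 11 to 9, and 21ur-15698 (T27E7.68), which moved from 29 to 10. 21ur-15698 had 312 counts under control RNAi and 371 under snpc-4 RNAi, a ratio of 1.16 (0.998 to 1.36). 21ur-9757 (F31A9.7), the piRNA at rank 11 under snpc-4 RNAi, came from rank 39 with 224 and 353 counts, and its gene is on chromosome X. In all, the 10 members are the first 10 of the control library and include 8 of the first 10 of the snpc-4 library. The borders are not resolved by these counts. For each adjacent pair at ranks 9 to 12 of the snpc-4 library the interval of the ratio of counts included 1. It also did for 21ur-482 over 21ur-5220 in the control library, at 0.918 (0.825 to 1.02).

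**Figure D3:**
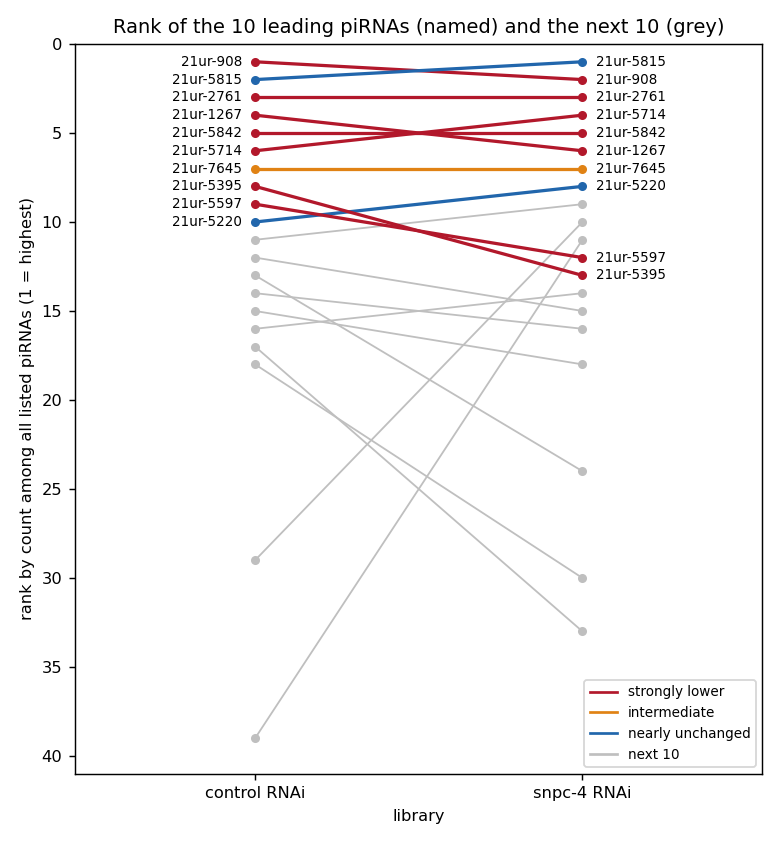
Rank by count among all listed piRNAs in the control RNAi and the snpc-4 RNAi library, with 1 at the top, for the 10 leading piRNAs (named, coloured by their ratio as strongly lower, intermediate or nearly unchanged) and the 10 ranked next by summed count (grey). 21ur-5815 and 21ur-908 exchange the first ranks, 21ur-5597 and 21ur-5395 drop to 12 and 13, and 2 grey lines climb from ranks 29 and 39 to 10 and 11.

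The limit of the list lies on a slope, not at a gap. The last member, 21ur-5395, had a summed count of 1132, and the first piRNA outside, 21ur-482, had 1067. The ratio of 21ur-482 was 0.577 (0.508 to 0.654), from 671 and 396 counts. The piRNAs ranked 11 to 20 had ratios from 0.247 for 21ur-2935 (B0350.6) to 1.54 for 21ur-9757. Among them 21ur-4864 had 629 and 241 counts, 21ur-3609 had 563 and 225, 21ur-2266 had 515 and 257, and 21ur-2891 had 517 and 206. 21ur-2935 had 606 and 153 counts, 21ur-4857 had 442 and 129, and 21ur-7129 had 436 and 134. At least 2-fold lower were 7 of the 10, and 1, 21ur-15698, was nearly unchanged.

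Counts were concentrated in the members in both libraries. The 10 held 35.6% (35.2% to 35.9%) of all piRNA counts under control RNAi and 34.0% (33.4% to 34.5%) under snpc-4 RNAi. Their summed level went from 1130 to 522 RPM, a ratio of 0.462 (0.452 to 0.473), against 0.496 (0.488 to 0.504) for the 15356 other piRNAs together. Summed, the members thus lost slightly more than the others pooled, with a relative ratio of 0.931 (0.906 to 0.958). This was not particular to the members. The ratio was 0.490 (0.467 to 0.515) for ranks 11 to 20 and 0.435 (0.418 to 0.452) for ranks 21 to 50. It was 0.457 (0.436 to 0.479) for ranks 51 to 100 and 0.529 (0.517 to 0.540) for ranks beyond 100. The choice of members matters here. The 10 highest in the snpc-4 library held 34.5% of piRNA counts under control RNAi and 34.4% under snpc-4 RNAi. The greater loss of the members also turned on 21ur-908. Without it, the other 9 members had a ratio of 0.530 (0.516 to 0.544), above that of the rest. Their share went from 23.4% to 25.6%. 21ur-5815, at a ratio of 0.880, moved the sum in the other direction.

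The shares of single members moved in both directions. 21ur-908 held 12.2% (11.9% to 12.4%) of piRNA counts under control RNAi and 8.33% (8.03% to 8.64%) under snpc-4 RNAi. 21ur-5815 held 4.70% (4.54% to 4.86%) and 8.54% (8.24% to 8.85%). The change was -3.83 percentage points for 21ur-908 and 3.84 points for 21ur-5815, the largest 2 of the 10. The 7 strongly lower members together went from 28.0% to 21.4% of piRNA counts. 21ur-5815 and 21ur-5220 together went from 5.83% to 10.4%. 21ur-7645 went from 1.75% to 2.12%, and 21ur-5714 stayed at 2.88% and 2.93%, whose intervals overlap.

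The loss of piRNA level was divided just as unevenly. The class lost 1638 RPM between the libraries, and 607.7 RPM or 37.1% of that was lost by the 10 members. 21ur-908 alone accounted for 258 RPM, which is 15.7% of the loss. 21ur-2761 accounted for 4.57% and 21ur-1267 for 4.34%. 21ur-5815, at a higher control level than either, accounted for 1.10%, and 21ur-5220 for 0.423%. These parts hold for RPM only, since both piRNAs were higher when scaled by the median ratio over all transcripts.

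**Figure D4:**
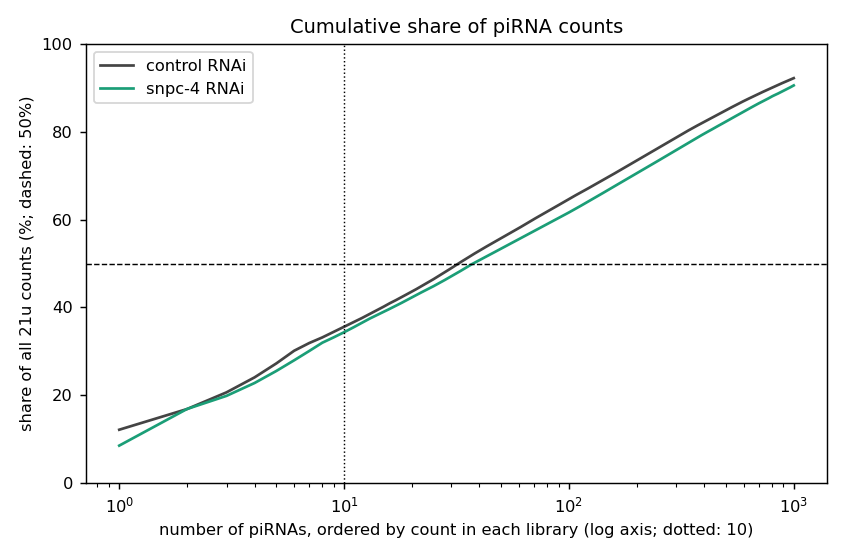
Cumulative share of all piRNA counts, in percent, against the number of piRNAs taken in order of their count in each library, on a log axis, for control RNAi (dark) and snpc-4 RNAi (green). The first 10 of each library hold 35.6% and 34.4%, and 50% is reached with 33 and 38 piRNAs.

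The class as a whole was nearly as concentrated in one library as in the other. It took 33 piRNAs to hold 50% of the counts under control RNAi and 38 under snpc-4 RNAi. The most abundant piRNA of each library held 12.2% and 8.54%, and the first pair, 21ur-908 and 21ur-5815 in both, held 16.9% and 16.9%. The first 100 held 64.7% and 61.6%. By contrast 11433 listed piRNAs had no counts in either library.

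Against other well-counted piRNAs all 10 ratios lay within the range of the others, 0.0391 to 4.16. Of the 560 well-counted piRNAs, the members among them, 89.6% were lower under snpc-4 RNAi. The median log2 ratio was -1.29 (-1.54 to -0.31) for the 10 members, an interval that holds the median of the 550 others. That median was -1.15 (-1.24 to -1.04), with quartiles of -1.62 and -0.53. Among the 40 piRNAs ranked 11 to 50 the median was -1.32, with 27 at least 2-fold lower and 5 nearly unchanged. Of the 560, 142 had a ratio below that of 21ur-908 and 161 below that of 21ur-1267, the lowest ratios of the list. At the other end, 476 of the 560 or 85.0% had a ratio below that of 21ur-5815, and 455 or 81.2% below that of 21ur-5220.

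**Figure D5:**
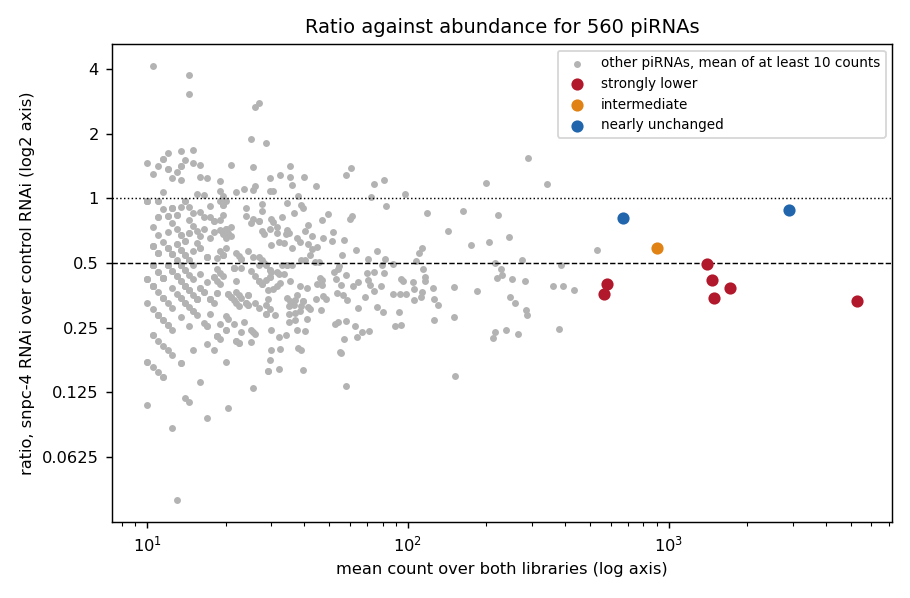
Ratio of the snpc-4 RNAi over the control RNAi library (log2 axis) against the mean count over both libraries (log axis) for the 560 well-counted piRNAs; the dotted and dashed lines mark ratios of 1 and 0.5. The 10 leading piRNAs (large points, coloured by ratio) lie at the right, from 0.332 to 0.880, within the spread of the grey points, which narrows as counts rise.

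All 10 members are annotated on chromosome IV, as are 549 of the 560 well-counted piRNAs (98.0%). Their clone names, which mark the stretch of the genome a gene was sequenced in, fall into 7 clones. 21ur-908, 21ur-5842 and 21ur-7645 share clone Y105C5B but had ratios of 0.332, 0.417 and 0.586, with no overlap between their intervals. The other 1378 piRNAs of that clone had 3961 and 1763 counts together, a ratio of 0.435 (0.411 to 0.460). 21ur-2761 and 21ur-1267 share clone Y40H7A, and their relative ratio of 1.11 (0.990 to 1.24) included 1. The other 287 piRNAs of Y40H7A had a ratio of 0.552 (0.491 to 0.620), higher than that pair.

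For each member the 10 annotated piRNA genes on either side were taken, 200 in all, and 153 of these (76.5%) had no counts in either library, against 74.4% of all 15366 listed piRNAs. Together the 200 had 532 and 267 counts, a ratio of 0.491 (0.422 to 0.570). Around 21ur-908 the 20 neighbours summed to 3 counts in each library, and around 21ur-5220 to 3 and 1, too few for a comparison. Around 21ur-5395 they had 252 and 95 counts, mostly from 21ur-1584 with 216 and 85. The member relative to these neighbours was at 0.974 (0.738 to 1.29), so no difference was detectable there.

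For a pair of members the interval relative to the pooled neighbours excluded 1, with 1 neighbour gene supplying a large part of each pool. 21ur-5714 was lower relative to its 20 neighbours, at 0.373 (0.239 to 0.576); those neighbours had 40 and 54 counts, of which 21ur-4611 supplied 14 and 38. 21ur-7645 was higher relative to its neighbours, at 4.04 (1.40 to 16.0), on 27 and 4 neighbour counts, of which 21ur-10848 supplied 14 and 1. Whether either interval excludes 1 without that single neighbour gene was not tested. Neither value is therefore read as a difference from the neighbours at large. Around 21ur-5815 the neighbours had 33 and 25 counts, a ratio of 0.741 (0.422 to 1.28), and 21ur-5815 relative to them was at 1.19 (0.683 to 2.09), so no difference was detectable. Its nearest well-counted neighbours were 21ur-2589, with 14 and 18 counts, and 21ur-5887, with 18 and 4. Those of 21ur-908 were 21ur-2904, with 55 and 15 counts, and 21ur-3213, with 72 and 25. These are not adjacent genes: 43 and 21 other piRNA genes lay between for 21ur-908, and from 1 to 80 over all members. Over all members, 11 of 20 such nearest neighbours were at least 2-fold lower, against the background of 58.8%.

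The table of genes places 7 members outside any other annotated gene. 21ur-5220 lies within the span of egl-23, which encodes a potassium channel subunit, 21ur-7645 within that of jac-1, which encodes a catenin, and 21ur-5842 within the pseudogene Y105C5B.23. The table gives neither strand nor exons, so where in these genes the piRNAs lie was not analysed here. The 2 members within protein-coding genes had, after 21ur-5815, the next highest ratios of the 10. Among the other well-counted piRNAs, in a comparison added after the values were seen, the median log2 ratio was -1.14 (-1.24 to -0.98) for 210 within such spans and -1.16 (-1.28 to -1.03) for 340 outside them. With a mean of at least 100 counts the medians were -1.38 (-2.04 to -0.84) for 14 and -1.28 (-1.43 to -0.997) for 36.

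In whole animals, fewer germ cells and less piRNA per germ cell cannot be told apart. The mir-35 family, microRNAs of the germline and embryo, had 54 counts under control RNAi and 16 under snpc-4 RNAi, a ratio of 0.290 (0.155 to 0.514), with 7 of its 8 members detected and mir-41 at 0. Its part in the result was not tested. The muscle microRNA mir-1 had a ratio of 1.31, and the larval timing microRNAs let-7, mir-48, mir-84 and mir-241 together 1.16. Among these mir-241 went from 673 to 1745 counts, a ratio of 2.54 (2.32 to 2.78), while the other 3 had ratios from 1.13 to 1.18. The neuronal mir-124 and lsy-6 were at 0 in both libraries.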

How the data were processed

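Small RNA libraries were read from the deposited tables of 2 of the 14 samples. The chromatin immunoprecipitation and input samples, 12 in number, were not used here. Per the labels' protocols, 5 µg of total RNA went into the Illumina small RNA v1.5 kit. Per the file headers, each deposited table gives a read count and an RPM value per transcript. The deposited RPM values are counts divided by a library total, 20413480 for control RNAi and 20875010 for snpc-4 RNAi. The submitters' processing notes name BWA. Neither its version nor the genome build, annotation or counter is stated in the labels.

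The members were the 10 transcripts of class 21u with the highest summed count. Members, lists and rules were chosen with earlier results of these data known. The rule for named piRNAs took the members, ranks 11 to 20, and the nearest neighbour on each side with a mean of at least 10 counts. 21ur-10848, below that minimum, was named outside this rule as the neighbour of 21ur-7645 with the most counts. Names, chromosome and gene order came from a RefSeq table of assembly WBcel235, in which 15363 of 15366 piRNAs matched.

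Ratios are snpc-4 RNAi over control RNAi, scaled by the RPM totals, with no read added. Intervals are 95%: exact Poisson for counts, exact conditional binomial for ratios, exact Clopper-Pearson for shares, exact conditional odds ratios for relative ratios, and order statistics for medians. No test was run, since each group has 1 library. Alternatives changed the scaling, the pseudocount, the choice of members and the minimum count. Steps were tested on simulated data. Values were computed in Python 3.11.15 with SciPy 1.17.1, NumPy 2.4.6 and pandas 2.3.3, and drawn with matplotlib 3.10.9.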

Additional observations from a re-analysis of the deposited data

How the results depend on the processing

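With 1 library per group the precision is limited to counting error, and the planned sequence features were not run because the tables used here hold no sequences. No paired analysis was possible because each group has 1 library. Of 110 alternative values, 65 lay inside the reported interval (for counts of piRNAs, within a factor of 1.5), 43 lay outside and 2 changed sign; the cause was not tested except where the construction shows it. Relative to RPM, log2 ratios shift by -0.14 when scaled to all listed counts, -0.20 to microRNAs, 0.45 by the median ratio of all transcripts and 0.014 by that of transcripts other than piRNAs. piRNAs are 560 of the transcripts that set the third of these, which takes up part of their own difference. With these first 3 scalings the log2 ratio of the members' sum, -1.11 in RPM, was -1.25, -1.31 and -0.67. Under the third, 3 members in place of 7 were at least 2-fold lower, and 21ur-5815 (0.26) and 21ur-5220 (0.14) were above 0. Of the 2 members nearly unchanged in RPM, 1 was so under the first scaling, 0 under the second, and both under the third and the fourth. Added reads or RPM changed no call. Other choices of members gave log2 ratios of -1.05 (the 10 highest in the snpc-4 library), -1.17 (the 5 highest sums) and -0.92 (without 21ur-908). Control and snpc-4 shares were 27.3% and 25.0% for the 5 highest sums and 43.2% and 41.7% for the 20 highest. They were 23.4% and 25.6% without 21ur-908, and 34.5% and 34.4% for the 10 highest in the snpc-4 library. At least 2-fold lower were 4 of the 5, 14 of the 20, and 5 of the 10 highest in the snpc-4 library. A choice by summed shares, made after seeing the data, replaced 21ur-5395 with 21ur-482 and left 6 of 10. The median of the other piRNAs, -1.15, was -1.03 with no minimum, -1.03 with a minimum mean of 1 and -1.29 with 50.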
